A study of Mus musculus with 16 samples.

Results

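The 44 cell cycle genes described here encode cyclins, cyclin-dependent kinases (CDKs), CDK inhibitors, E2F and retinoblastoma family proteins, and proteins of DNA replication and mitosis. They were chosen by name from the 55487 genes counted, with earlier results of these data known. They were set apart as 19 genes of G1 phase, 13 of S phase and 12 of M phase. Of these, 43 passed the filter on low counts and entered a test of 12372 genes in all. The gene left out, E2f7, encodes an E2F repressor and had 3 to 36 fragments per sample.

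RNA-sequencing was performed on 16 samples of macrophages that were differentiated in culture from mouse bone marrow (BMDMs). All samples came from wild type (WT) Balb/c mice of 8 weeks. BMDMs were starved of serum and then given conditioned media (CM) of 4T1 cells, a mouse mammary tumor line that had itself been starved of serum, or DMEM without tumor factors (No_CM in the labels). The study asked how tumor factors and inhibition of JAK alter macrophage gene expression, and what inhibition of NF-κB adds to this. The inhibitors were ruxolitinib (Rux), which blocks JAK1 and JAK2, and IKK-16, which blocks the kinases upstream of NF-κB. The 6 groups were DMEM (n = 2), DMEM + Rux (n = 3), CM (n = 3), CM + Rux with a 4 h label (n = 3), CM + Rux with a 2 h label (n = 2) and CM + Rux + IKK-16 (n = 3). Where CM was present, Rux was used at 0.5 μM and IKK-16 at 0.8 μM. Per the methods, BMDMs were starved for 2 h before CM, and Rux was added during this step. IKK-16 was added with CM, and treatment with CM and Rux for RNA lasted 4 h. The labels give a time for the CM + Rux groups without IKK-16 alone. The dose of Rux in DMEM and the meaning of the 2 h label were not given in the sources used here. The labels do not tell whether replicates came from separate mice or cultures, so p-values measure only the spread between these samples, which may be technical.

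CDKs drive the cell cycle when they are bound to cyclins and are held back by CDK inhibitors. In G1, D cyclins with CDK4 or CDK6 and then cyclin E with CDK2 phosphorylate the retinoblastoma proteins, which frees E2F factors to switch on genes of DNA replication, and cyclin B with CDK1 later drives mitosis. BMDMs divide in response to the growth factor M-CSF, and inflammatory stimuli are known to hold them in G1.

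Promoters of the members carried short sequence words that are known from cell cycle genes. Promoter windows from RefSeq (GRCm38.p6) span 300 bases, of which 250 lie before a start site. For 36 members there were 42 windows. Ccnd1, Ccnd2, Ccne2, Rb1, Mcm4, Gmnn, Ccna2 and Aurkb had no entry. E2F words (TTTGGCGC, TTTCCCGC, TTTGCCGC or TTTCGCGC, on either strand) stood in 6 of 12 windows of S genes, 5 of 20 of G1 genes and 1 of 10 of M genes, against 2.26% of all 32851 windows. The CHR word TTTGAA, an element of late cell cycle genes, stood in 7 of 10 windows of M genes, 1 of 12 of S genes and 3 of 20 of G1 genes, against 17.9% of all windows. CCAAT, the word bound by NF-Y, stood in 9 of 10 windows of M genes, 9 of 12 of S genes and 10 of 20 of G1 genes, against 37.4% of all. The NF-κB word, GGG and TTTCC with 2 bases of any kind between them, stood in 1 of the 42 windows, that of Birc5, against 1.63% of all windows. The STAT word TTCNNNGAA stood in 1 as well, that of Mcm5, against 8.3% of all. These words are letters in a window and not evidence of a bound factor.

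The windows of 4 members are shown, which were chosen after the values were seen. Those of Mcm6, E2f2, Mki67 and Top2a run 5′ to 3′ on the strand of the gene, with E2F, CHR and CCAAT words in capitals. Mcm6 is the S gene with the largest decrease in CM, E2f2 had the second largest increase at 2 h, and Mki67 and Top2a are M genes with the same words, of which one was called in CM and the other was not. Positions are chr1:128359656-128359955 (minus strand) for Mcm6, chr4:136172024-136172323 (plus strand) for E2f2, chr7:135716330-135716629 (minus strand) for Mki67 and chr11:99024140-99024439 (minus strand) for Top2a. Mcm6 held E2F words from bases 141, 145 and 204 of the window, and the first 2 of these overlap. The E2f2 window shown held 1 E2F word, from base 290. A second E2f2 window, chr4:136180532-136180831, is not shown and held CHR and CCAAT words but no E2F word. Mki67 held CHR words from bases 135 and 153, and Top2a from bases 72 and 228.
Mcm6: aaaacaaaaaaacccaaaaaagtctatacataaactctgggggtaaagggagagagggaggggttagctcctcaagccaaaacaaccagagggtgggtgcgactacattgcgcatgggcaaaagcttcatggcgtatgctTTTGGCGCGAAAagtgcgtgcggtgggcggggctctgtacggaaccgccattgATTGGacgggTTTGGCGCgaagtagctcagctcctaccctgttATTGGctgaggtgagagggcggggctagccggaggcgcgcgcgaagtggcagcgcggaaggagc
E2f2: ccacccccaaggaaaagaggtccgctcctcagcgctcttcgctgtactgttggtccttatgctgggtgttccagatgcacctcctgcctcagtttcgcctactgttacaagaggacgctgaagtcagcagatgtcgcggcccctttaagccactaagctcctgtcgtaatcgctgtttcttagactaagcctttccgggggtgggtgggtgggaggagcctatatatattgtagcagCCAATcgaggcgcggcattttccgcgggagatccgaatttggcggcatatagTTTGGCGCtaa
Mki67: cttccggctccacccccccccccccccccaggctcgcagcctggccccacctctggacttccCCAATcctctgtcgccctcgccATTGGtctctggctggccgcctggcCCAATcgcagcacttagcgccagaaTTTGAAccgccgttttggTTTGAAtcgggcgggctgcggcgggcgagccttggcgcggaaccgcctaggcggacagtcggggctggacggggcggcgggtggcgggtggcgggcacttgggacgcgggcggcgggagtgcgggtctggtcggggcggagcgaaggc
Top2a: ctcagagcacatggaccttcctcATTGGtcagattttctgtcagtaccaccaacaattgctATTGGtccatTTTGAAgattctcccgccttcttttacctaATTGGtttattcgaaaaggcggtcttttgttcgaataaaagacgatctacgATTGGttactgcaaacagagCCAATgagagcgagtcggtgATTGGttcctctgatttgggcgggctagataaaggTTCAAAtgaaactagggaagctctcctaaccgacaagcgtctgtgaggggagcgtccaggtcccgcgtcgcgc

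The count of fragments on genes was lowest in a sample with 18449388 and highest in one with 46215853, with a median of 31610906. All 12 macrophage markers were tested and summed to between 41406 and 58797 CPM, the count of a gene relative to the scaled library size. Lyz2 made up most of this sum, and other markers moved in both directions. From DMEM to CM, mean Cd14 went from 2113 to 13561 CPM and Itgam from 110 to 218 CPM. Mean Csf1r, the gene of the M-CSF receptor, went from 3560 to 2332 CPM and Mertk from 25.4 to 17.0 CPM. Of 12 markers of myeloid progenitors, 4 were tested, and the list summed to between 4.85 and 10.8 CPM, with Ms4a3 at 0 in every sample and Elane at no more than 0.0462 CPM. The list summed to between 5.05 and 6.69 CPM in CM and 9.16 and 10.8 CPM in CM + Rux 4 h. Mean Gfi1 was 0.0909 CPM in DMEM, 0.951 CPM in CM, 5.46 CPM in CM + Rux 4 h and 0.780 CPM with IKK-16. Mean Sox4 was 2.96, 1.31, 1.12 and 2.06 CPM in these groups. Group means of Cd34 and Cebpe stayed below 4 CPM. The B cell list (2 of 7 tested) summed to between 80.2 and 144.0 CPM in DMEM, 88.0 and 140.9 CPM in DMEM + Rux, 10.6 and 15.6 CPM over CM, CM + Rux 4 h and CM + Rux + IKK-16, and 55.7 and 71.4 CPM at 2 h. Ighm made up nearly all of this sum and Pax5 was at 0 in every sample. Other lists summed to between 2.42 and 10.1 CPM (neutrophils, 2 of 9 tested), 4.81 and 13.1 CPM (T and NK cells, 1 of 9), 1.62 and 14.4 CPM (dendritic cells, 2 of 7), 5.83 and 20.9 CPM (fibroblasts, 4 of 7) and 0.0409 and 1.45 CPM (epithelial cells, 0 of 7). The part of these cells in the results was not tested.

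Levels of the members differed widely, and those of M genes were low. Values are CPM scaled by relative log expression (RLE), given per sample in order of replicate number or as mean ± SD. Per kilobase of exon, the median in DMEM was 5.05 CPM for G1 genes, 3.11 CPM for S genes and 0.994 CPM for M genes, beside 5.29 CPM for all genes tested. In CM the median was 5.05 CPM per kilobase for G1 genes, 1.47 for S genes and 0.669 for M genes, beside 5.44 for all genes tested. Cdkn1a, which encodes the CDK inhibitor p21, had the highest mean level per kilobase of all members in both groups, at 83.0 CPM in DMEM and 324 CPM in CM. Pcna, the sliding clamp of DNA polymerases, came next in DMEM with 52.0 CPM per kilobase. At the other end, E2f7 was at 0.0593 CPM and Cdc6, a loader of the replicative helicase, was at 0.214 CPM per kilobase in DMEM. E2f7 was at 0.414 and 0.655 CPM in DMEM and 0.389, 0.238 and 0.204 CPM in CM, and it stayed below 1 CPM in all 16 samples.

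**Figure D1:**
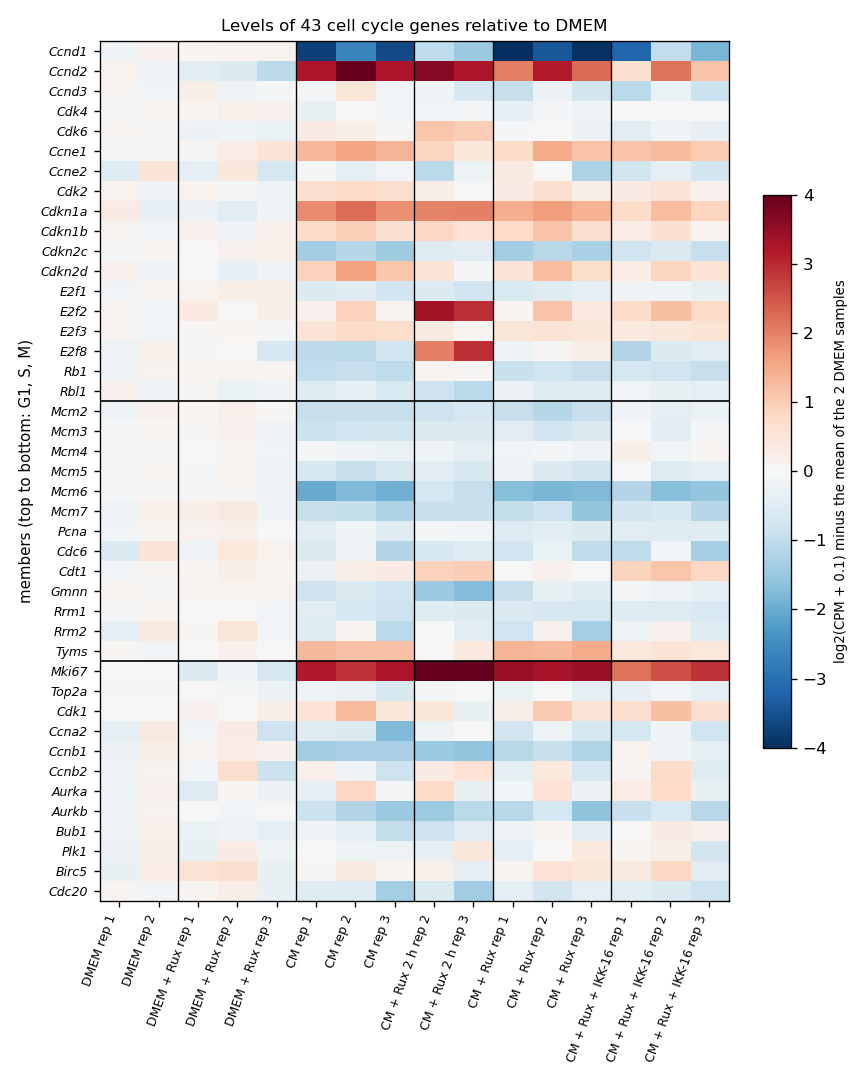
Levels of the 43 tested members in each of the 16 samples, as log2(CPM + 0.1) minus the mean of the 2 DMEM samples, with G1, S and M genes from top to bottom. Blue marks lower and red higher levels, and differences beyond 4 have the end colours. Ccnd1 and Mcm6 were lower and Ccnd2 and Mki67 higher in every sample with CM, and E2f2 and E2f8 stood out in the 2 samples of CM + Rux 2 h.

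Next, the effect of CM was examined. CM changed 26 of 43 members, of which 10 rose and 16 fell. In the quasi-likelihood test of edgeR, a call needed an adjusted p-value below 0.05 together with a log2 fold change past 0.5 in either direction, and by this rule 20.9% of all genes tested rose and 24.1% fell. The corresponding shares of the members were 23.3% and 37.2%. The D cyclins were exchanged, since Ccnd1 was 9.31-fold lower and Ccnd2 12.0-fold higher in CM. Most genes of the MCM helicase fell, and Mki67 was 8.76-fold higher while the mitotic genes Ccnb1, Aurkb and Cdc20 fell. RNA from a whole culture cannot tell fewer cells in a phase from less RNA per cell. Scaling by total counts in place of RLE shifted the median of all genes by 0.31 (log2) in this comparison, and called 6 members higher and 20 lower, beside 12.4% and 37.2% of all genes tested.

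By phase, 7 of 18 G1 genes rose and 6 fell, 1 of 13 S genes rose and 7 fell, and 2 of 12 M genes rose and 3 fell. The median log2 fold change was -0.70 for S genes and -0.28 for M genes, beside -0.00496 for all genes tested. For G1 genes it was 0.17, and -0.14 with scaling by total counts.

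Among the D cyclins, the first cyclins of G1, Ccnd1 was at 46.9 and 60.5 CPM in DMEM and at 3.95, 8.53 and 4.32 CPM in CM (log2 fold change -3.22 ± 0.46, adjusted p = 4.0e-05). Every CM sample was far below both DMEM samples. Ccnd2 moved the other way, from 13.0 and 10.6 CPM to 111, 203 and 111 CPM (log2 fold change 3.58 ± 0.49, adjusted p = 2.7e-05). Per kilobase of exon, Ccnd1 was 11.4 CPM and Ccnd2 1.25 CPM in DMEM, and in CM these levels were 1.19 and 15.0 CPM. Ccnd3 overlapped between the groups, with 43.0 and 36.7 CPM in DMEM and 37.9, 56.1 and 37.0 CPM in CM (log2 fold change 0.13 ± 0.27, adjusted p = 0.68), and its level per kilobase lay between those of the other two in DMEM.

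**Figure D2:**
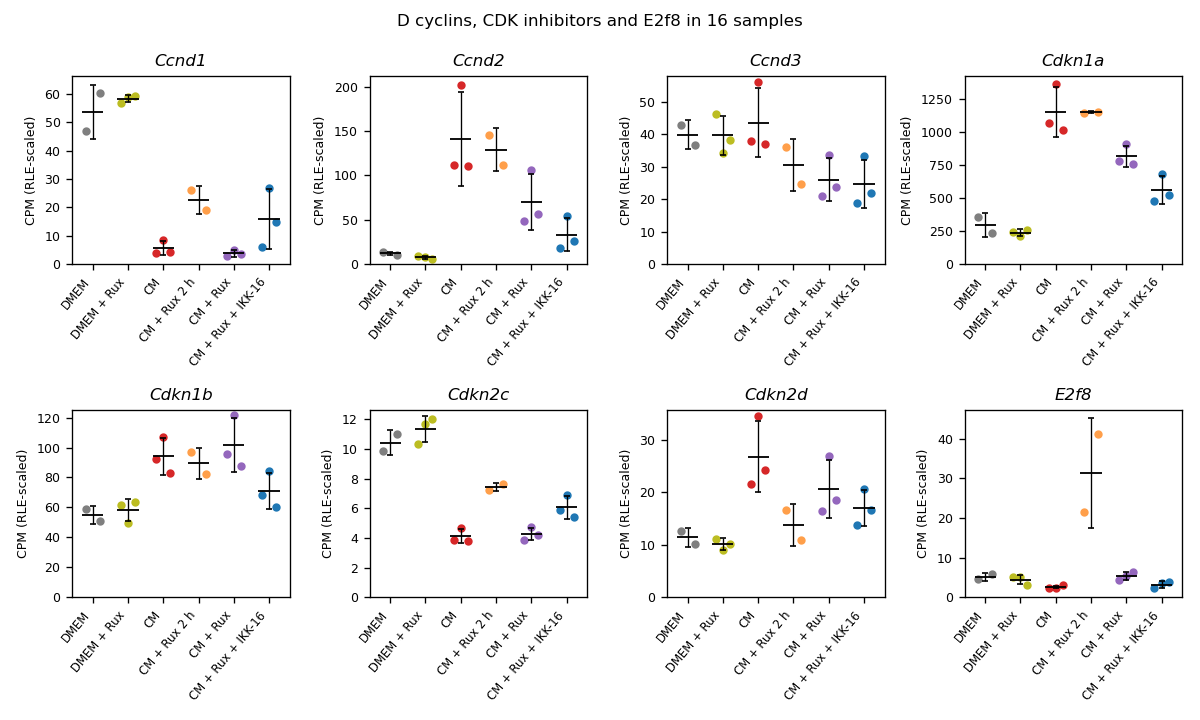
Levels in CPM (RLE-scaled, linear axes from 0) of the 3 D cyclins, 4 CDK inhibitors and E2f8 in each of the 16 samples. Points are samples, horizontal lines are group means and bars are ± SD. Ccnd1 was highest without CM, Ccnd2 and Cdkn1a were highest in groups with CM, and E2f8 was above 20 CPM at 2 h alone.

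The kinase partners of D cyclins did not pass the test. Cdk4 was at 93.2 ± 7.18 CPM in DMEM and 85.0 ± 8.09 CPM in CM, with a log2 fold change of -0.13 ± 0.09, and Cdk6 had a log2 fold change of 0.21 ± 0.11. Genes of the next kinase step, cyclin E with CDK2, were higher in part. Ccne1 rose from 2.28 and 2.41 CPM to 6.01, 7.22 and 6.19 CPM, which was 2.77-fold higher (log2 fold change 1.47 ± 0.23, adjusted p = 8.7e-05). Cdk2 rose from 31.2 ± 3.83 CPM to 50.1 ± 2.38 CPM (log2 fold change 0.68 ± 0.14, adjusted p = 6.7e-04), a call lost with scaling by total counts. Ccne2, the second cyclin E gene, was low in all samples, between 0.254 and 1.11 CPM, and its groups overlapped.

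CDK inhibitors split by gene. Cdkn1a was at 358 and 231 CPM in DMEM and 1068, 1366 and 1018 CPM in CM, which was 3.90-fold higher (log2 fold change 1.96 ± 0.20, adjusted p = 2.0e-06). Cdkn1b, which encodes p27, rose from 59.2 and 50.8 CPM to 92.1, 107 and 82.9 CPM (log2 fold change 0.77 ± 0.17, adjusted p = 0.0015), and this call was lost with scaling by total counts. Both proteins bind cyclin and CDK pairs. The INK4 inhibitors among the members, which bind CDK4 and CDK6, moved in opposite directions. Cdkn2d, which encodes p19, rose from 12.7 and 10.1 CPM to 21.5, 34.4 and 24.3 CPM (log2 fold change 1.23 ± 0.26, adjusted p = 0.0011). Cdkn2c, which encodes p18, fell from 9.84 and 11.0 CPM to 3.89, 4.66 and 3.83 CPM (log2 fold change -1.33 ± 0.14, adjusted p = 2.3e-06). In all 4 of these genes the CM samples lay on 1 side of the DMEM samples.

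E2F and retinoblastoma family genes also split. E2f3, an activator of replication genes, rose from 27.6 ± 3.14 to 43.4 ± 3.16 CPM (log2 fold change 0.65 ± 0.10, adjusted p = 9.8e-05), a call lost with scaling by total counts. E2f1, a further activator, fell from 24.5 ± 2.98 to 16.2 ± 1.74 CPM (log2 fold change -0.59 ± 0.11, adjusted p = 3.9e-04). E2f2 did not pass, with 3.34 and 2.82 CPM in DMEM and 3.45, 5.97 and 3.38 CPM in CM (log2 fold change 0.49 ± 0.32, adjusted p = 0.21). E2f8, a repressor like E2f7, fell from 4.55 and 5.98 to 2.45, 2.44 and 3.05 CPM (log2 fold change -0.98 ± 0.31, adjusted p = 0.013). Rb1, the retinoblastoma gene itself, was 1.97-fold lower, with 50.7 and 60.9 CPM in DMEM and 28.2, 29.1 and 27.6 CPM in CM (log2 fold change -0.98 ± 0.09, adjusted p = 5.0e-07). Its relative Rbl1, which encodes p107, fell less, from 19.5 and 15.6 to 12.3, 13.2 and 11.4 CPM (log2 fold change -0.51 ± 0.14, adjusted p = 0.0062), and with the replicate number as a block its log2 fold change was -0.45, short of the threshold. Without DMEM replicate 2, the calls of E2f1 (whose change then missed the fold threshold) and E2f8 (adjusted p = 0.11) were lost, and that of Rbl1 was lost without DMEM replicate 1 (adjusted p = 0.11) or CM replicate 3.

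In S phase, 5 of the 6 MCM helicase genes fell. The largest change was that of Mcm6, from 20.4 and 21.5 CPM in DMEM to 5.06, 6.03 and 5.50 CPM in CM, which was 3.76-fold lower (log2 fold change -1.91 ± 0.14, adjusted p = 9.8e-08). Mcm2 was at 12.1 and 15.0 CPM in DMEM and 7.01, 7.01 and 7.05 CPM in CM (log2 fold change -0.94 ± 0.12, adjusted p = 1.4e-05). Mcm7 was at 8.60 and 11.4 CPM in DMEM and 5.23, 5.11 and 4.20 CPM in CM (log2 fold change -1.04 ± 0.22, adjusted p = 0.001). In each of these genes the levels of the CM samples were close to each other and below DMEM. The same held for Mcm3, with 25.5 and 28.2 CPM in DMEM and 14.7, 15.4 and 16.2 CPM in CM (log2 fold change -0.80 ± 0.13, adjusted p = 1.4e-04), and for Mcm5, with 11.8 and 13.0 CPM in DMEM and 7.79, 6.45 and 7.90 CPM in CM (log2 fold change -0.75 ± 0.18, adjusted p = 0.0027). Mcm4 was the exception, with 21.0 ± 0.993 and 18.5 ± 1.07 CPM (log2 fold change -0.18 ± 0.11, adjusted p = 0.15), although the 6 proteins form 1 ring. Levels of the 6 genes per kilobase thus ran from 1.95 (Mcm2) to 7.15 CPM (Mcm3) in DMEM and from 1.01 (Mcm2) to 5.15 CPM (Mcm4) in CM.

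Of the genes that license replication, Gmnn, which encodes the inhibitor geminin, fell from 11.0 and 10.1 to 5.90, 7.04 and 6.15 CPM (log2 fold change -0.72 ± 0.16, adjusted p = 0.0013). Its target Cdt1, a loader of MCM, overlapped between the groups, with 18.2 and 20.9 CPM in DMEM and 16.7, 23.5 and 24.3 CPM in CM (log2 fold change 0.15 ± 0.14, adjusted p = 0.39). Cdc6 and Rrm2 were low and overlapped as well. Genes of nucleotide supply went apart. Rrm1, the large subunit of ribonucleotide reductase, fell from 25.2 ± 1.77 to 16.2 ± 2.26 CPM (log2 fold change -0.64 ± 0.10, adjusted p = 1.2e-04), whereas Tyms, thymidylate synthase, rose from 2.90 and 2.46 to 6.68, 6.09 and 6.07 CPM (log2 fold change 1.22 ± 0.15, adjusted p = 9.0e-06). Tyms was the single S gene that rose. Pcna was at 125 ± 14.3 CPM in DMEM and 97.2 ± 12.5 CPM in CM, with an adjusted p of 0.0056 but a log2 fold change of -0.36 ± 0.10, short of the threshold. In the same edgeR test with scaling by total counts, Pcna was called lower (log2 fold change -0.67, adjusted p = 1.2e-05).

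Among M genes, Mki67, which encodes the chromosome surface protein Ki-67 that marks dividing cells, was at 20.5 and 19.7 CPM in DMEM and 184, 149 and 196 CPM in CM (log2 fold change 3.13 ± 0.22, adjusted p = 6.0e-08). Cdk1, the kinase of mitosis, rose from 6.41 and 6.63 CPM to 9.79, 15.9 and 8.92 CPM (log2 fold change 0.83 ± 0.30, adjusted p = 0.027), and CM replicate 2 was the highest of these. The Cdk1 call was lost without this sample (adjusted p = 0.14), without either DMEM sample and with scaling by total counts. The partner of CDK1 went down, as Ccnb1, cyclin B1, fell from 3.46 and 4.79 to 1.50, 1.60 and 1.59 CPM (log2 fold change -1.38 ± 0.19, adjusted p = 3.2e-05). Aurkb, a kinase that corrects chromosome attachment, fell from 4.67 and 5.65 to 2.78, 2.23 and 1.75 CPM (log2 fold change -1.20 ± 0.25, adjusted p = 8.7e-04). Cdc20, an activator of the anaphase-promoting complex, fell from 3.55 and 2.99 to 2.23, 2.26 and 1.22 CPM (log2 fold change -0.78 ± 0.29, adjusted p = 0.029), and this call was lost without CM replicate 3 or either DMEM sample (adjusted p up to 0.16). The other 7 M genes did not pass with RLE scaling. Scaling by total counts called 1 of the 12 M genes higher and 6 lower, beside 12.4% and 37.2% of all genes tested. Top2a, the topoisomerase that untangles chromosomes, was at 14.9 ± 0.725 CPM in DMEM and 11.8 ± 2.08 CPM in CM (log2 fold change -0.33 ± 0.15, adjusted p = 0.069). Ccna2, cyclin A2, had a log2 fold change of -0.91 ± 0.42 (adjusted p = 0.071, and 0.037 with the replicate block). Ccnb2, Aurka, Bub1, Plk1 and Birc5 overlapped between the groups, with log2 fold changes from -0.50 (Bub1) to 0.26 (Aurka).

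**Figure D3:**
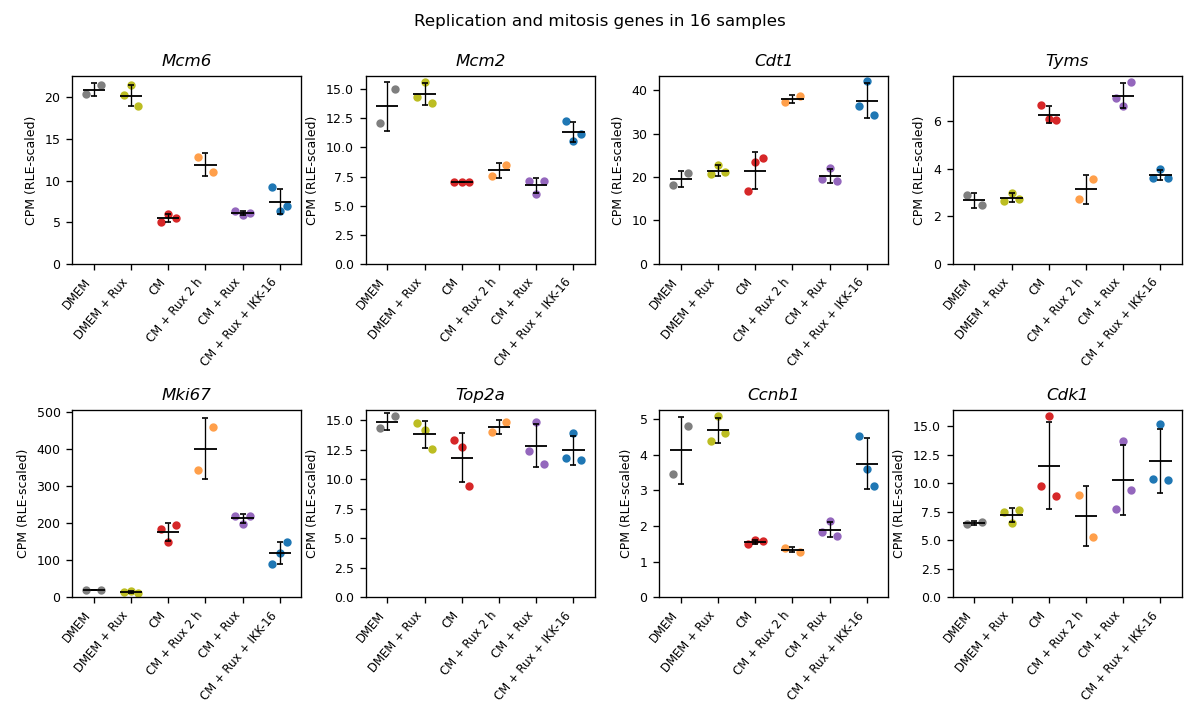
Levels in CPM (RLE-scaled, linear axes from 0) of 4 S genes (Mcm6, Mcm2, Cdt1 and Tyms) and 4 M genes (Mki67, Top2a, Ccnb1 and Cdk1) in each of the 16 samples. Points are samples, horizontal lines are group means and bars are ± SD. Mcm6 was lower and Mki67 higher in every CM sample than in DMEM, while Top2a stayed between 9.45 and 15.4 CPM in all samples.

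Mki67 made up most of the summed level of the M genes in CM. The 12 genes summed to between 62.3 and 68.2 CPM in DMEM and between 196 and 226 CPM in CM, whereas the median of the 12 genes was 2.87 to 2.99 CPM in DMEM samples and 1.67 to 2.23 CPM in CM samples. The median of the S genes was 12.1 to 15.0 CPM in DMEM samples and 7.01 to 7.05 CPM in CM samples.

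Genes of the same pathways outside the members were counted in 4 further lists, which were also chosen with earlier results of these data known. Of 52 other replication genes, 3 rose and 22 fell (median log2 fold change -0.49), and of 43 other mitosis genes tested, 5 rose and 24 fell (median -0.89). The shares were 5.77% and 42.3% of the replication genes and 11.6% and 55.8% of the mitosis genes. Of all genes tested, 20.9% rose and 24.1% fell. The largest increases (log2) among replication genes were those of Uhrf1, which maintains DNA methylation (1.05), Fen1 of Okazaki fragment processing (0.80) and Orc1 of the origin recognition complex (0.75), and large decreases were those of Dut, which removes dUTP (-2.36), and Pola1 of DNA polymerase alpha (-1.85). In mitosis the increases were led by Cks2, a subunit of CDK complexes (1.43), Pkmyt1, an inhibitory kinase of CDK1 (0.78), and Fzr1 (0.74), and the decreases by the spindle motor Kif11 (-2.31), Ndc80 of the kinetochore (-2.08) and the kinase Wee1 (-1.90). Of 43 other G1 genes tested, 13 rose and 13 fell (30.2% each, median 0.17). The stress gene Gadd45b (3.28) and the antiproliferative genes Btg3 (3.27) and Btg1 (2.60) rose most, and Sesn1 (-4.38), Cables1 (-3.06) and Tfdp2, a partner of E2F (-2.70), fell most. Of 8 genes of the Myc network tested, Mxi1 (3.16) and Myc (1.54) rose, and Mxd4 (-3.23), Mnt (-0.73) and Mga (-0.56) fell. All of these named genes passed both thresholds. Scaling by total counts called 1 of the replication genes and 1 of the mitosis genes higher and 32 and 27 lower, beside 12.4% and 37.2% of all genes tested. Under the replicate block 23 replication and 26 mitosis genes and 3 Myc network genes were lower and 3 Myc network genes were higher, beside 21.7% of all genes tested higher and 25.5% lower. Leaving out 1 sample raised the adjusted p of Orc1 to 0.11, of Pkmyt1 to 0.14 and of Mga to 0.19.

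The effect of Rux was then examined without and with CM. In DMEM, Rux changed 0 of the 43 members in edgeR, beside 0% of all genes tested higher and 0.97% lower. DESeq2 also called 0 members, beside 0% of all genes higher and 1.19% lower, and at an unadjusted p under 0.05 with the same fold threshold there were 0 members, beside 0.404% and 1.99% of all genes. Log2 fold changes ranged from -0.68 ± 0.46 (Ccnd2) to 0.36 ± 0.37 (Birc5). Ccnd1 was at 56.8, 58.9 and 59.3 CPM, Ccnd2 at 8.59, 8.02 and 5.57 CPM, Cdkn1a at 244, 212 and 257 CPM and Mcm6 at 20.3, 21.4 and 18.9 CPM in DMEM + Rux. All but Ccnd2 overlapped DMEM, and Ccnd2 was lower in 3 of 3 samples (adjusted p = 1). Mki67 had the smallest p of the members, with 20.5 and 19.7 CPM in DMEM and 13.6, 17.8 and 12.8 CPM in DMEM + Rux (log2 fold change -0.44 ± 0.20, adjusted p = 0.94). In the 4 further lists edgeR, DESeq2 and the replicate block called 0 genes, and at an unadjusted p under 0.05 with the same fold threshold 2 replication genes were higher and 1 mitosis gene and 1 Myc network gene lower. Of all genes tested, the block called 0.00808% higher and 1.24% lower.

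In CM, Rux also changed 0 of the 43 members in edgeR, where 1.2% of all genes tested rose and 2.13% fell. At an unadjusted p under 0.05 with the same fold threshold 1 member was higher and 2 were lower, beside 2.97% and 3.86% of all genes. DESeq2 called 1 member higher and 1 lower, beside 1.71% and 2.7% of all genes. E2f8 was at 2.45, 2.44 and 3.05 CPM in CM and 4.50, 5.45 and 6.31 CPM in CM + Rux, where all samples were higher (log2 fold change 1.02 ± 0.28, adjusted p = 0.058, 0.0075 by DESeq2). Ccnd2 was at 111, 203 and 111 CPM in CM and 48.2, 106 and 56.4 CPM in CM + Rux (log2 fold change -1.01 ± 0.37, adjusted p = 0.17). Ccnd3 was at 37.9, 56.1 and 37.0 CPM in CM and 20.9, 33.5 and 23.6 CPM in CM + Rux (log2 fold change -0.75 ± 0.24, adjusted p = 0.11, 0.034 by DESeq2). For both D cyclins the sample numbered 2 was the highest in each group, and with the replicate number as a block Ccnd2 (adjusted p = 0.011) and Ccnd3 (adjusted p = 0.022) were called lower and E2f8 (adjusted p = 0.023) higher, beside 2.47% of all genes tested higher and 3.56% lower. Cdkn1a was at 1068, 1366 and 1018 CPM in CM and 781, 908 and 759 CPM in CM + Rux (log2 fold change -0.50 ± 0.17, adjusted p = 0.13).

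Ccnd1, Mcm6 and Mki67, which had moved far in CM, did not pass the test of Rux, with or without the block. Ccnd1 was at 2.72, 4.94 and 3.36 CPM in CM + Rux (log2 fold change -0.63 ± 0.47, adjusted p = 0.63), Mcm6 at 6.34, 5.86 and 6.11 CPM (log2 fold change 0.13 ± 0.13, adjusted p = 0.76) and Mki67 at 220.5, 199.9 and 220.3 CPM (log2 fold change 0.28 ± 0.17, adjusted p = 0.51). Log2 fold changes of S genes against CM ranged from -0.15 (Pcna) to 0.29 (Mcm5), and those of M genes from -0.17 (Cdk1) to 0.33 (Ccna2). Of the further lists, edgeR called Mad2l1 of the spindle checkpoint (1.01), the stress gene Gadd45a (1.02), Rbl2 of the retinoblastoma family (0.74) and Lin9 of the MuvB complex (0.56) higher and 0 genes lower. The calls of Mad2l1 (adjusted p up to 0.22) and Lin9 (up to 0.18) were lost when 1 sample was left out. Total counts scaling called 0 mitosis genes, beside 1.31% of all genes tested higher and 2.2% lower. At an unadjusted p under 0.05 with the same fold threshold, 2 replication, 2 mitosis, 4 other G1 genes and 1 Myc network gene were higher, and 2 other G1 genes and 1 Myc network gene were lower. With the replicate block, 1 replication gene, 1 mitosis gene, 3 other G1 genes and 1 Myc network gene were higher, and 2 other G1 genes and 1 Myc network gene were lower. DESeq2 gave the same counts as the block but for 1 other G1 gene lower. Of all genes tested, edgeR called 1.2% higher and 2.13% lower, and 2.97% and 3.86% met the unadjusted rule. The block called 2.47% and 3.56% of them, and DESeq2 1.71% and 2.7%.

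**Figure D4:**
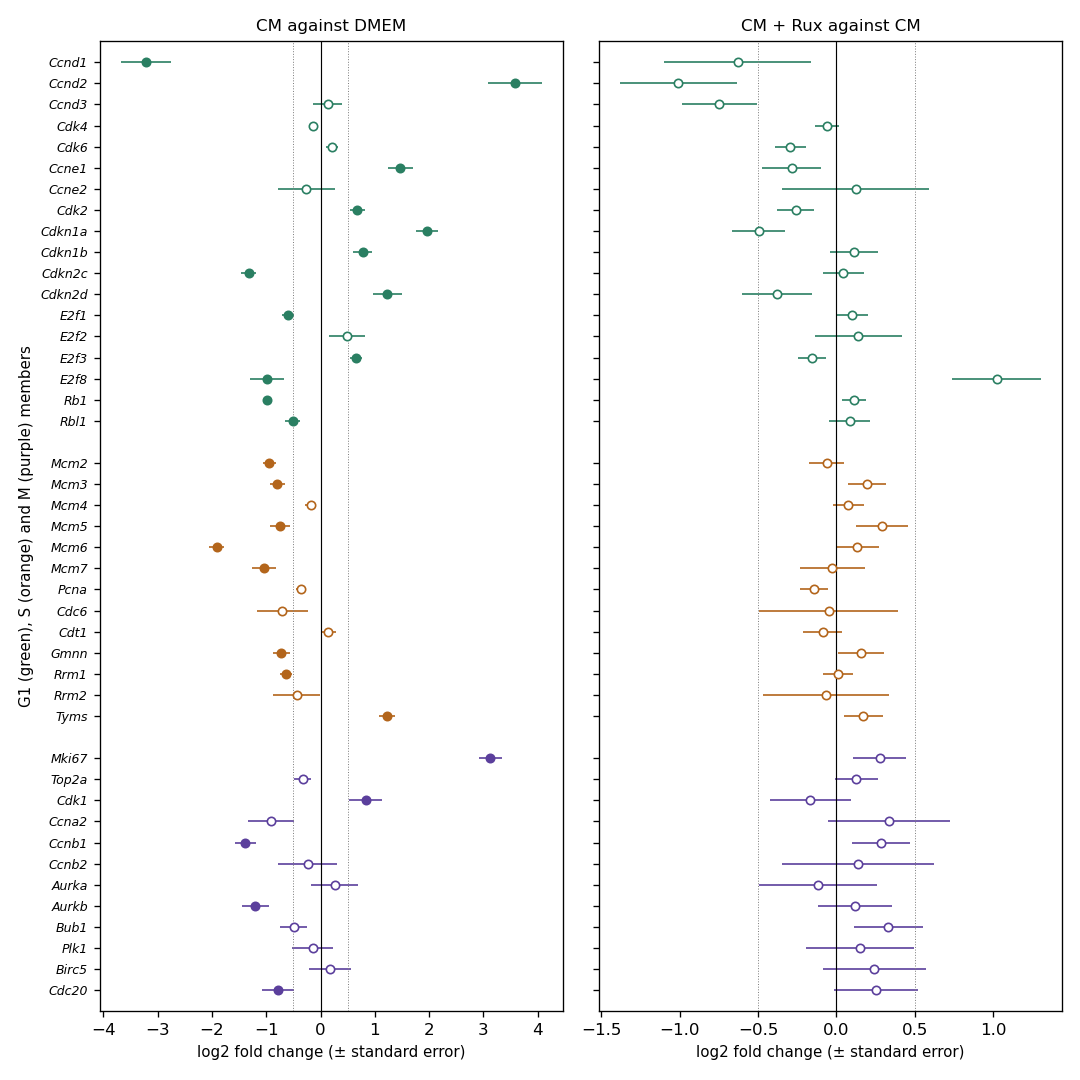
Log2 fold changes of the 43 tested members in CM against DMEM (left) and in CM + Rux against CM (right), with bars of ± standard error. Filled points passed both thresholds, dotted lines mark ± 0.5, and the horizontal scales of the panels differ. On the left 26 points are filled and on the right 0.

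The difference between the effects of Rux in CM and in DMEM, tested as an interaction, was called for 0 members in edgeR, beside 0.234% of all genes tested higher and 0.178% lower, and for 0 members by DESeq2, beside 1.19% and 0.703%. At an unadjusted p under 0.05 with the same fold threshold, which 3.5% of all genes met as higher and 2.5% as lower, it was positive for 2 members, E2f8 (difference of log2 fold changes 1.25 ± 0.41, adjusted p = 0.25) and Mki67 (difference 0.72 ± 0.26, adjusted p = 0.34), and negative for 0. With the replicate block 0 members were called, beside 2% of all genes tested higher and 1.59% lower. Of the further lists, edgeR called 1 other G1 gene, Rbl2, and with the block 3 other G1 genes, 1 mitosis gene and 1 Myc network gene were higher.

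IKK-16, added to CM and Rux, changed 8 of the 43 members, of which 4 rose and 4 fell. Of all genes tested, 4.07% rose and 3.66% fell in this comparison, and each direction holds 9.3% of the members. Ccnd1 rose 4.23-fold, Ccnb1 1.96-fold, Cdt1 1.85-fold and Mcm2 1.68-fold, while Tyms, Mki67, Cdkn1a and Cdkn1b fell. With scaling by total counts 6 members were higher and 2 lower, beside 5.88% and 2.83% of all genes tested. The CM + Rux 4 h samples are the reference here and in the comparison of 2 h with 4 h, and they are also the treated samples of the comparison with CM, so these 3 comparisons are not independent.

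Ccnd1 was at 2.72, 4.94 and 3.36 CPM in CM + Rux and 5.82, 26.8 and 14.8 CPM in CM + Rux + IKK-16 (log2 fold change 2.08 ± 0.44, adjusted p = 0.0073). The samples with IKK-16 spread widely but all lay above those without it, and all lay below DMEM. The other D cyclins were not called. Ccnd2 was at 18.5, 53.7 and 26.2 CPM with IKK-16 (log2 fold change -1.10 ± 0.38, adjusted p = 0.066), and sample 2 was again the highest in both groups. With the replicate block it was called lower (adjusted p = 0.0037), as was E2f8 (2.27, 3.55 and 3.82 CPM, log2 fold change -0.75 ± 0.27, adjusted p = 0.08, 0.037 with the block), and Cdkn2c was called higher (5.90, 6.88 and 5.39 CPM, log2 fold change 0.50 ± 0.13, adjusted p = 0.017, 0.0031 with the block). The block thus gave 5 members higher and 6 lower, beside 5.81% and 5.04% of all genes tested. Ccnd3 was at 18.9, 33.2 and 22.0 CPM (log2 fold change -0.08 ± 0.24, adjusted p = 0.87).

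Of the other CDK inhibitors, Cdkn1a was at 781, 908 and 759 CPM in CM + Rux and 476, 683 and 526 CPM with IKK-16 (log2 fold change -0.54 ± 0.17, adjusted p = 0.046). Cdkn1b was at 95.5, 122 and 87.7 CPM in CM + Rux and 68.1, 84.3 and 60.5 CPM with IKK-16 (log2 fold change -0.52 ± 0.15, adjusted p = 0.034). The groups did not overlap in either gene, but the changes were close to the thresholds. The call of Cdkn1a was lost without each sample but CM + Rux + IKK-16 replicate 2 (adjusted p up to 0.18), that of Cdkn1b without CM + Rux replicates 1 or 2 or CM + Rux + IKK-16 replicates 1 or 3 (adjusted p up to 0.15), and both with scaling by total counts. Cdkn2d was at 16.4, 27.0 and 18.5 CPM in CM + Rux and 13.8, 20.6 and 16.6 CPM with IKK-16, and the groups overlapped (log2 fold change -0.28 ± 0.22, adjusted p = 0.45).

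Replication genes moved in both directions. Cdt1 was at 19.6, 22.1 and 19.1 CPM in CM + Rux and 36.5, 42.0 and 34.4 CPM with IKK-16 (log2 fold change 0.89 ± 0.12, adjusted p = 5.2e-04), which was above every DMEM sample. Mcm2 was at 7.09, 6.03 and 7.12 CPM in CM + Rux and 12.2, 10.6 and 11.1 CPM with IKK-16 (log2 fold change 0.75 ± 0.11, adjusted p = 6.8e-04). It was the single MCM gene called with RLE scaling, and the other 5 had log2 fold changes from 0.17 (Mcm4) to 0.45 (Mcm3). Mcm3 had an adjusted p of 0.02 but missed the fold threshold. In the edgeR test with scaling by total counts Mcm3 was called higher (log2 fold change 0.54, adjusted p = 0.015). Tyms fell from 6.96, 6.64 and 7.63 to 3.61, 3.98 and 3.61 CPM (log2 fold change -0.92 ± 0.12, adjusted p = 4.4e-04), so that its level lay between those of DMEM and CM.

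In M phase, Mki67 fell from 220.5, 199.9 and 220.3 to 90.6, 120.4 and 149 CPM (log2 fold change -0.83 ± 0.17, adjusted p = 0.0056), and all samples remained above DMEM. Ccnb1 rose from 1.83, 2.13 and 1.73 to 4.51, 3.61 and 3.12 CPM (log2 fold change 0.97 ± 0.17, adjusted p = 0.0023), and 2 of 3 samples with IKK-16 lay within the range of DMEM. The other 10 M genes had log2 fold changes from -0.09 (Plk1) to 0.34 (Bub1) and did not pass. Of the further lists, 1 of 52 replication genes rose (1.92%) and 0 fell, beside 4.07% and 3.66% of all genes tested. The gene that rose was Dnmt1, the maintenance DNA methyltransferase (log2 fold change 1.24). In mitosis 4 rose (9.3%) and 1 fell (2.33%). The increases were led by Cenpa, the centromere histone (1.42), Wee1 (1.41) and Kif23 of cytokinesis (1.34), and Nusap1 of the spindle fell (-1.25). Of the other G1 genes 0 rose and 5 fell (11.6%), led by Gadd45b (-0.91), Btg3 (-0.75) and Ccng2 (-0.71), and in the Myc network Mycl fell (-1.98). The replicate block gave other counts, since 4 replication genes, 9 mitosis genes and 2 other G1 genes were higher, and 2 mitosis genes, 5 other G1 genes and 1 Myc network gene were lower. With the block 5.81% of all genes tested were higher and 5.04% lower. The call of Ccng2 was lost when 1 sample was left out (adjusted p up to 0.078).

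Finally, the 2 CM + Rux samples with the 2 h label were compared with the 3 samples of the 4 h label. At 2 h 9 of 43 members were higher and 3 were lower, beside 12.6% and 10.7% of all genes tested, and the shares of the members were 20.9% and 6.98%. Genes of the G1 set, which holds 18 of the 43 members tested, made up 6 of the 9. They were led by Ccnd1 (6.11-fold higher), E2f2 (5.91-fold higher) and E2f8 (5.79-fold higher). Scaling by total counts called 9 members higher and 6 lower, beside 10.8% and 13.8% of all genes tested. Since these groups differ in their label of time alone, whether it marks the length of treatment cannot be told from the counts.

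E2f2 was at 31.6 and 24.7 CPM at 2 h and 3.26, 6.90 and 4.02 CPM at 4 h, which was 5.91-fold higher (log2 fold change 2.56 ± 0.29, adjusted p = 1.9e-05). E2f8 was at 21.6 and 41.1 CPM at 2 h and 4.50, 5.45 and 6.31 CPM at 4 h (log2 fold change 2.53 ± 0.28, adjusted p = 1.7e-05). For both genes the 2 h samples were above all other 14 samples of the study. E2f1 and E2f3, by contrast, had log2 fold changes of -0.16 ± 0.11 and -0.27 ± 0.10 and did not pass. Rb1 was at 59.5 and 57.6 CPM at 2 h and 30.1, 32.2 and 29.4 CPM at 4 h (log2 fold change 0.94 ± 0.09, adjusted p = 3.2e-06), and its 2 h samples fell within the range of DMEM. Rbl1 was lower, at 9.83 and 8.12 CPM at 2 h and 14.8, 12.2 and 12.1 CPM at 4 h (log2 fold change -0.53 ± 0.15, adjusted p = 0.013), a call lost with the replicate block (log2 fold change -0.44), without CM + Rux 2 h replicate 3 (adjusted p = 0.12) and without CM + Rux replicate 1.

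Of the cyclins and CDKs of G1, Ccnd1 was at 26.2 and 19.0 CPM at 2 h and 2.72, 4.94 and 3.36 CPM at 4 h (log2 fold change 2.61 ± 0.48, adjusted p = 8.2e-04). In order of the mean its level was highest in DMEM + Rux (58.3 ± 1.31 CPM) and DMEM (53.7 ± 9.64 CPM), which overlapped, then came CM + Rux 2 h (22.6 ± 5.07 CPM), CM + Rux + IKK-16 (15.8 ± 10.5 CPM), CM (5.60 ± 2.54 CPM) and CM + Rux 4 h (3.67 ± 1.14 CPM). Each of these 4 overlapped its neighbours in this order, and none overlapped the groups without CM. Cdk6 was at 429 and 391 CPM at 2 h and 194, 202 and 170.1 CPM at 4 h (log2 fold change 1.12 ± 0.11, adjusted p = 4.3e-06), and no other sample of the study reached 250 CPM. Cdkn2c was at 7.26 and 7.65 CPM at 2 h and 3.88, 4.72 and 4.22 CPM at 4 h (log2 fold change 0.80 ± 0.14, adjusted p = 6.3e-04). Ccnd2 was at 146 and 112 CPM at 2 h (log2 fold change 0.88 ± 0.41, adjusted p = 0.1). With the replicate block Ccnd2 was called higher (adjusted p = 0.02), and Ccne1 (adjusted p = 0.025), Cdkn2d (adjusted p = 0.03) and the M gene Cdk1 (adjusted p = 0.038) were called lower, which gives 10 members higher and 5 lower beside 13.3% and 12.2% of all genes tested.

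Cdkn1a, at 1144 and 1153 CPM at 2 h, came close to the thresholds (log2 fold change 0.49 ± 0.19, adjusted p = 0.0502). Cdkn1b was at 96.8 and 82.1 CPM (log2 fold change -0.18 ± 0.17, adjusted p = 0.42), Cdkn2d at 16.6 and 11.0 CPM (log2 fold change -0.57 ± 0.26, adjusted p = 0.098) and Ccnd3 at 36.1 and 24.8 CPM (log2 fold change 0.23 ± 0.27, adjusted p = 0.52).

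The pair of Cdt1 and its inhibitor Gmnn moved apart at 2 h. Cdt1 was at 37.3 and 38.6 CPM at 2 h and 19.6, 22.1 and 19.1 CPM at 4 h (log2 fold change 0.90 ± 0.14, adjusted p = 2.0e-04), and Gmnn was at 3.70 and 3.10 CPM at 2 h and 5.50, 8.55 and 7.28 CPM at 4 h (log2 fold change -1.05 ± 0.18, adjusted p = 4.3e-04). Gmnn was lower at 2 h than in any other sample of the study. Of the MCM genes, Mcm6 was called, with 12.9 and 11.0 CPM at 2 h and 6.34, 5.86 and 6.11 CPM at 4 h (log2 fold change 0.97 ± 0.14, adjusted p = 1.6e-04), and the other 5 had log2 fold changes from -0.16 (Mcm4) to 0.25 (Mcm2). Tyms was at 2.71 and 3.56 CPM at 2 h and 6.96, 6.64 and 7.63 CPM at 4 h (log2 fold change -1.19 ± 0.15, adjusted p = 4.4e-05).

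Mki67 was the M gene called, at 345 and 460.3 CPM at 2 h and 220.5, 199.9 and 220.3 CPM at 4 h (log2 fold change 0.91 ± 0.19, adjusted p = 0.0017), and its 2 h samples were the highest of all 16. The other 11 M genes had log2 fold changes from -0.52 (Bub1) to 0.57 (Ccnb2) and did not pass. Of 52 other replication genes 6 were higher (11.5%) and 9 lower (17.3%), beside 12.6% and 10.7% of all genes tested. These were led by Pola1 (1.61), Dut (1.47) and Chaf1b (1.09) and by Pole2 (-1.37), Gins3 (-0.81) and Tipin (-0.79), respectively. Of 43 other mitosis genes 6 were higher (14%) and 4 lower (9.3%), led by Cenpa (1.17), Spc25 (1.08) and Racgap1 (1.07) and by Incenp (-1.12), Kif20a (-0.84) and Cdca8 (-0.76). Of 43 other G1 genes 5 were higher and 5 lower (11.6% each), led by Tfdp2 (1.23), Lin54 (0.97) and Tob1 (0.83) and by Sesn2 (-1.72), Btg3 (-1.46) and Lin52 (-0.59). In the Myc network Mxd4 (1.83) and Mxd1 (0.62) were higher, and Mnt (-1.16) and Mga (-0.69) lower. Under the replicate block 6 replication, 8 mitosis and 6 other G1 genes were higher and 11, 4 and 4 were lower. With the block 13.3% of all genes tested were higher and 12.2% lower. The adjusted p of Chaf1b, Cenpa, Spc25, Kif20a, Mxd1 and Mga passed 0.05 when 1 sample was left out, with the highest value for Mxd1 (0.31).

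**Figure D5:**
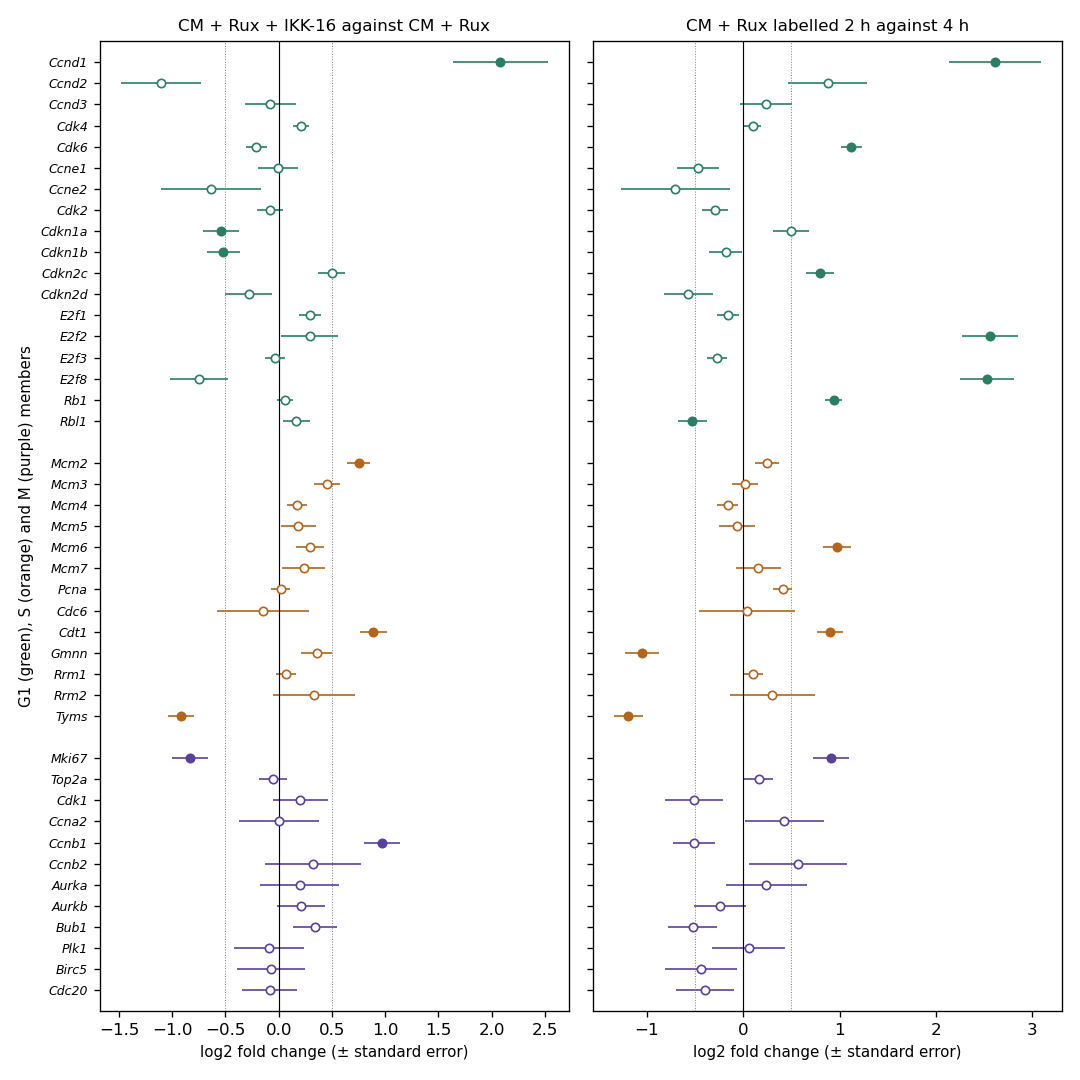
Log2 fold changes of the 43 tested members in CM + Rux + IKK-16 against CM + Rux (left) and in CM + Rux with the 2 h label against the 4 h label (right), with bars of ± standard error. Filled points passed both thresholds, dotted lines mark ± 0.5, and the horizontal scales differ. On the left 8 points are filled and on the right 12, and Ccnd1 had the largest increase in both panels.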

How the data were processed

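RNA from 16 BMDM samples was sequenced as stranded paired reads. Per the methods and the submitters' processing notes, reads were trimmed with Trimmomatic 0.33, mapped to GRCm38 with HISAT2 2.1.0 and counted per gene with featureCounts 1.6.2 (Ensembl 100, mapping quality of at least 10, reverse strand). The deposited values are raw counts per gene, and samples were grouped by their labels. The deposited files give Ensembl identifiers, and symbols were matched for 55141 of 55487.

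The 12372 genes with more than 1 CPM in 2 or more samples were tested in 1 model over all 6 groups with edgeR 4.0.16 (R 4.3.3, quasi-likelihood, RLE scaling). A gene was called at an adjusted p (Benjamini-Hochberg over all genes tested) under 0.05 and a log2 fold change beyond 0.5. Alternatives were DESeq2 1.42.0, TMM or total counts scaling, other filters and thresholds, fits of the compared groups alone, each sample left out and a replicate block. Same-numbered samples of the groups compared deviated together (r from 0.204 to 0.631 in 12 pairs, against -0.419 to 0.035 in 24 pairs with different numbers). Deviations were taken from the group mean and cancel out within a group, so these 2 ranges are not independent of each other. Over all pairs of groups r ran from 0 to 0.631 in 35 same-numbered pairs and from -0.419 to 0.114 in 71 others. Block values are given where they change the call of a member or a count in a list. This pairing comes from the counts, since the labels do not say what a number marks. The code was tested on simulated data.

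Members and lists were chosen with earlier results of these data known. Sample values are given for the 6 largest called changes per phase in CM, members called with inhibitors, D cyclins and CDK inhibitors, and in other lists up to 3 genes per direction are named, of which 1 is not reported here.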

Additional observations from a re-analysis of the deposited data

Results flagged for a closer look

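One gene of the further G1 list was singled out because the effect of Rux differed between CM and DMEM. Rbl2 encodes p130, the retinoblastoma family protein of resting cells. It was at 70.2 and 77.3 CPM in DMEM, 80.6, 75.6 and 78.3 CPM in DMEM + Rux, 61.4, 64.2 and 57.8 CPM in CM, and 103, 114 and 89.6 CPM in CM + Rux. All 3 samples of CM + Rux were above all samples of CM, DMEM and DMEM + Rux. The effect of Rux was 0.74 (log2, adjusted p = 2.4e-04) in CM and 0.08 (adjusted p = 1) in DMEM, and the difference of 0.66 ± 0.13 (SE) had an adjusted p of 0.047 in edgeR, 0.0042 with the replicate block and 0.0013 by DESeq2. Leaving out 1 sample raised the adjusted p to as much as 0.13. With IKK-16, Rbl2 was at 72.4, 69.6 and 64.9 CPM, and in CM + Rux 2 h it was at 123 and 108 CPM.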

How the results depend on the processing

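Of the 46 member values called in any comparison, 528 of 560 recalculated values kept direction and call, 32 kept direction only and 0 changed sign. Leaving out 1 sample accounted for 21 of the 32, total counts scaling for 6, the compared groups alone for 3 and the replicate block for 2. Shares in parentheses are of all genes tested under the same setting. In CM against DMEM, total counts scaling called 6 members higher (12.4%), and leaving out 1 sample gave 9 to 10 higher (18.9% to 21.4%) and 13 to 17 lower (20.3% to 23.5%). In CM + Rux against CM, 1 member was called higher with total counts scaling (1.31%), without the filter (1.1%), with the replicate block (2.47%), by DESeq2 (1.71%), with the compared groups alone (0.972%) and at an adjusted p under 0.1 (1.72%). In this comparison 2 members were lower without the filter (1.7%) and with the replicate block (3.56%), 1 by DESeq2 (2.7%), and 0 to 1 when 1 sample was left out (1.3% to 2.61%). With IKK-16, 2 members were lower with total counts scaling (2.83%) and with the compared groups alone (3.14%), and leaving out 1 sample gave 4 to 6 higher (2.89% to 4.11%) and 2 to 5 lower (2.51% to 4.22%). At 2 h, 6 members were lower with total counts scaling (13.8%), 5 with the replicate block (12.2%) and 5 at an adjusted p under 0.1 (12%), and leaving out 1 sample gave 9 to 11 higher (9.86% to 12.8%) and 2 to 3 lower (8.34% to 10.7%). The interaction was called for 2 members without the filter (0.87%), and for 0 when 1 sample was left out (0.0728% to 0.682% higher). The replicate block changed no call of a member beyond those given. The causes were not tested. Where 1 sample of DMEM or CM + Rux 2 h remained, it was assumed to vary like the other groups. Members near 1 CPM, such as Ccne2 and Cdc6, rest on few fragments, so small changes were not detectable.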
